A study of Mus musculus with 12 samples.

Results

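The genes examined encode the aminoacyl-tRNA synthetases, the enzymes that join each amino acid to its tRNA, together with asparagine synthetase (Asns). They were chosen by symbol from the probe annotation and not by their values: 37 genes were listed, namely 20 cytosolic synthetases, 16 mitochondrial synthetases whose symbols end in 2, and Asns. Of these, 35 had a probe set naming 1 gene, out of 19938 genes on the array with such a probe set, and all 35 lay above the filter on low values (5.49 on the log2 scale). Mars was matched through another symbol for the same gene, Aars was present only on a probe set naming a second gene, and Dars was not analysed here.

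The 12 samples were plasma cells from mouse bone marrow, 6 of genotype Zbtb32-/- and 6 wild type (Zbtb32 +/+), taken on day 7 of a recall response. Zbtb32 encodes a BTB zinc finger transcription factor, and the comparison asks what differs in transcript levels when it is missing. In both groups the donors had been immunised with NP-CGG, a hapten on a carrier protein. Their CD45.2 splenocytes were moved into CD45.1 hosts, which were then given the same antigen. The hosts kept their own CD45.1 cells, and donor plasma cells that bind NP were sorted as B220-, CD138+, Ly6g-, CD11b-, CD45.1- and CD45.2+. Zbtb32 was missing from all transferred donor cells, so the design does not separate an effect in plasma cells from one in their precursors or in other donor cells. The series text calls the samples biological replicates and does not tie them to single mice, so p-values measure the spread between these samples. Age and sex of the mice and the deleted part of Zbtb32 are not given in the sources used here.

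A synthetase recognises 1 amino acid and its tRNAs and uses ATP to couple them; class I and class II enzymes have unrelated catalytic folds. Mitochondria use a separate set of enzymes encoded in the nucleus, although Gars and Kars serve both compartments, and several cytosolic enzymes are held in a multi-synthetase complex. Plasma cells make antibody at a high rate and so consume charged tRNA, and in the amino acid response uncharged tRNA activates the kinase GCN2, which raises the factor ATF4 and with it Asns and many cytosolic synthetase genes.

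ATF4 with a C/EBP partner is known to bind the amino acid response motif TGATGNAA, which was searched on both strands in the 250 bases before each gene's start. Asns, Tars and Gars are shown because they hold this motif close to the start and because their array values are described in detail further on. Each line gives the 100 bases before the start from RefSeq on build GRCm38.p6, 5′ to 3′ on the gene's own strand, with the motif in capitals. In Tars and Gars the capitals are the motif as read on the opposite strand.
Asns, chr6:7693210-7693309, minus strand: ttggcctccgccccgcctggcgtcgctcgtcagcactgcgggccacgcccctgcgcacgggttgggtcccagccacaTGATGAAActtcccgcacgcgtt
Tars, chr15:11399659-11399758, minus strand: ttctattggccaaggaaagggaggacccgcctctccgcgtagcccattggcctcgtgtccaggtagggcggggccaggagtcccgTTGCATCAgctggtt
Gars, chr6:55037901-55038000, plus strand: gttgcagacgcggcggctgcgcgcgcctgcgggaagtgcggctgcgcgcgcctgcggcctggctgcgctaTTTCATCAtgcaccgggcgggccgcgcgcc

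The first base of the match lay 23 bases before the start in Asns, 15 in Tars and 30 in Gars. A promoter entry was found for 28 of the 37 genes, and 4 of the 28 (14.3%) held the motif, the fourth being Aars with a match 112 bases before its start. In the promoter table as a whole, 1056 of 27025 genes (3.9%) held it. The 4 comprised 3 of 13 cytosolic synthetases and Asns, against 0 of 14 mitochondrial ones. The E-box CACGTG, the sequence that Myc proteins recognise, stood in the promoters of Aars, Farsb and Iars, 3 of 28 (10.7%), against 1854 of 27025 genes (6.9%), and in Aars it did not overlap the other motif. A match describes letters in this window and not a bound site.

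The values are log2 expression values made by the authors with RMA, 1 array per sample, and every difference below is Zbtb32-/- minus wild type. Array medians spanned 6.28 to 6.43, and any 2 arrays correlated at 0.914 to 0.984 across probe sets. Plasma cell genes were high in both groups: the immunoglobulin joining chain Jchain ranged from 13.51 to 13.66 in Zbtb32-/- cells and from 13.63 to 13.94 in wild-type cells, and Xbp1, the factor of the secretory programme, from 12.89 to 13.43 in Zbtb32-/- cells and from 12.68 to 13.24 in wild-type cells. Genes of other marrow cells were measured as well, the highest of each list on average being S100a9 (neutrophil, 12.55), Cd74 (B cell, 12.16), Car1 (erythroid, 9.18), C1qa (monocyte and macrophage, 8.96) and Cd2 (T and NK cell, 7.74). RMA values have no true zero and came without detection calls here. The Zbtb32 probe set gave 6.47, 6.53 and 6.73 (lowest, median, highest) in Zbtb32-/- cells and 6.39, 6.68 and 6.88 in wild-type cells, a difference of -0.11 (95% interval -0.31 to 0.09). Because the deleted part is not known here, this value does not check the genotype labels.

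No synthetase gene differed between the genotypes after adjustment. With limma and Benjamini-Hochberg adjustment over 14993 genes, 0 genes passed 0.05 (0%), among them 0 of the 35 synthetase and Asns genes, and the smallest adjusted p was 0.933. Most differences were small and positive: 28 of 35 genes had a higher mean in Zbtb32-/- cells, where 52.9% of all genes tested did. All 35 lay above the 50th percentile of level (6.53), and of the genes above it 64.4% had a higher mean. At an unadjusted p under 0.05 there were 4 of the 35, Lars2, Mars, Hars and Sars2, all higher in Zbtb32-/- cells, against 2.83% of all genes higher and 1.45% lower. With limma run on the 9887 genes above the 50th percentile of level, 388 were higher and 82 lower at that p, and 3 of the 35 reached it. Across single-array omissions in the main fit the number of the 35 ran from 2 to 9, the 9 being reached without Zbtb32-/- replicate 6. The number over all genes tested moved as well, from 642 in the main fit to 968 without that array. It was 1416 without wild-type replicate 3, with 7 of the 35, and 458 without wild-type replicate 6, with 2 of the 35. The 2 groups of arrays overlapped in all 35 genes; groups without overlap made up 0.153% of all genes. Precision is limited by having 6 arrays a group, and the 95% interval extended by a median of 0.31 log2 units on each side of the estimate.

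**Figure D1:**
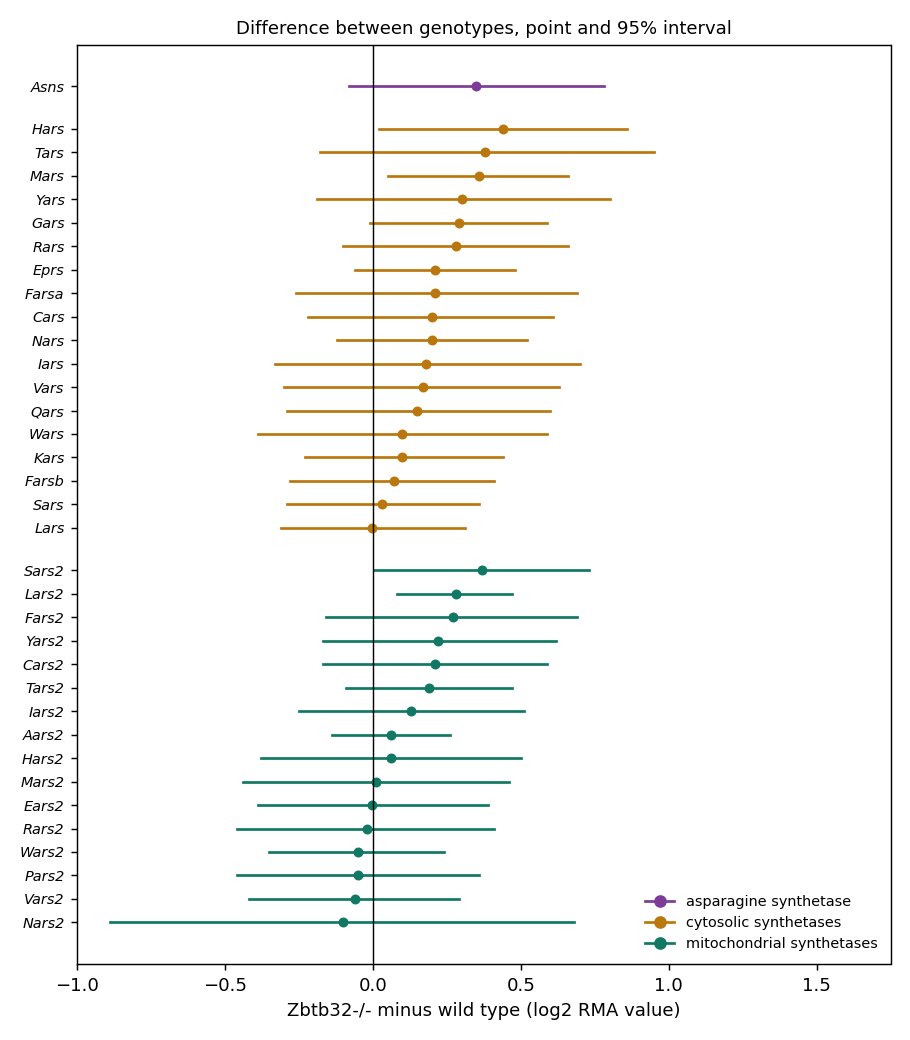
Difference in log2 RMA value between Zbtb32-/- and wild-type cells (x axis, Zbtb32-/- minus wild type) for Asns, 18 cytosolic and 16 mitochondrial synthetases (y axis), as the limma estimate (point) with its 95% interval (line), n = 6 arrays each. Of the cytosolic genes 17 lie right of 0, of the mitochondrial ones 10, and 4 intervals in all (Hars, Mars, Sars2, Lars2) stay above 0 before adjustment.

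Among the cytosolic synthetases, 17 of 18 had a positive difference, with a median of 0.20 against 0.01 over all genes tested. The estimates were mostly positive in both classes, with 9 of 10 class I genes (median 0.19) and 8 of 8 class II genes (median 0.21). They were also mostly positive both for enzymes of the multi-synthetase complex (6 of 7, median 0.18) and for those outside it (11 of 11, median 0.20). Whether such parts of the list differ was not tested, and all their genes were read from the same arrays. Of the synthetases reported as ATF4-responsive in mouse cells, 10 of 11 were positive (median 0.20), and of the remaining ones 7 of 7 (median 0.17). Genes above the 50th percentile of level had a median of 0.06, and 64.4% of them were positive.

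Mars, the methionyl-tRNA synthetase, which also charges the initiator tRNA, had 8.64, 8.86 and 8.95 (lowest, median, highest) in Zbtb32-/- cells and 8.16, 8.37 and 8.84 in wild-type cells. All 6 arrays of Zbtb32-/- cells exceeded the mean of wild type, while 2 wild-type arrays reached into their range. The difference was 0.36 (1.28-fold, SE 0.14, 95% interval 0.05 to 0.66), with an unadjusted p of 0.0253 and an adjusted p of 0.933 in limma.

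Hars, the histidyl enzyme, had 8.94, 9.05 and 9.31 in Zbtb32-/- cells and 7.90, 8.85 and 9.10 in wild-type cells. The Zbtb32-/- arrays were close together and above the wild-type mean in 6 of 6, and the 2 low wild-type arrays, replicates 6 (7.90) and 2 (8.20), stood apart from the other wild-type arrays, which were at 8.79 or above. The difference of 0.44 (1.36-fold, SE 0.20, unadjusted p 0.0397, adjusted p 0.933 in limma) was the highest estimate of the 35 genes, with a span of 0.30 to 0.54 when single arrays were omitted and a value of 0.15 when both low wild-type arrays were.

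Gars, the glycyl enzyme of cytosol and mitochondria and 1 of the genes with the motif shown above, had 10.41, 10.60 and 10.88 in Zbtb32-/- cells and 9.96, 10.42 and 10.62 in wild-type cells. Its difference was 0.29 (1.22-fold, SE 0.14, 95% interval -0.01 to 0.59), and 0.13 without wild-type replicates 2 and 6. Eprs, the bifunctional glutamyl- and prolyl-tRNA synthetase, had 9.58, 9.81 and 9.98 in Zbtb32-/- cells and 9.30, 9.54 and 9.85 in wild-type cells. In both genes 6 of 6 Zbtb32-/- arrays exceeded the wild-type mean although the ranges overlapped, and the difference of Eprs was 0.21 (1.16-fold, SE 0.12, 95% interval -0.06 to 0.48).

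Tars, the threonyl enzyme, varied most among the cytosolic genes, with an SD of 0.52 over the 12 arrays. It had 7.89, 8.96 and 9.02 in Zbtb32-/- cells and 7.49, 8.50 and 8.98 in wild-type cells. In Zbtb32-/- cells 5 arrays stood within 8.89 to 9.02 and replicate 6 lay far below them, while in wild-type cells replicates 4 to 6 were the low ones. The difference was 0.38 (1.31-fold, SE 0.26, 95% interval -0.18 to 0.95), and it was 0.57 without Zbtb32-/- replicate 6 and 0.20 without wild-type replicate 4.

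The other cytosolic differences ran from -0.0018 in Lars, the leucyl enzyme, to 0.30 in Yars, the tyrosyl one. Between them lay Sars (seryl, 0.03), Farsb (beta chain of the phenylalanyl enzyme, 0.07), Kars (lysyl, 0.10), Wars (tryptophanyl, 0.10), Qars (glutaminyl, 0.15), Vars (valyl, 0.17) and Iars (isoleucyl, 0.18). Cars (cysteinyl) and Nars (asparaginyl) were at 0.20, Farsa (alpha chain of the phenylalanyl enzyme) at 0.21 and Rars (arginyl) at 0.28. The 2 chains of the phenylalanyl enzyme had overlapping intervals, -0.26 to 0.69 for Farsa and -0.28 to 0.41 for Farsb. Iars had a second probe set with a difference of 0.21, close to the first.

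Asns, which makes asparagine from aspartate with glutamine as nitrogen donor, had 8.49, 9.12 and 9.47 in Zbtb32-/- cells and 8.15, 8.82 and 9.12 in wild-type cells. The difference was 0.35 (1.27-fold, SE 0.20, 95% interval -0.08 to 0.78), and 5 of 6 Zbtb32-/- arrays exceeded the wild-type mean. Omission of wild-type replicate 4 gave 0.23. It did not pass the test (unadjusted p 0.102, adjusted p 0.933 in limma).

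**Figure D2:**
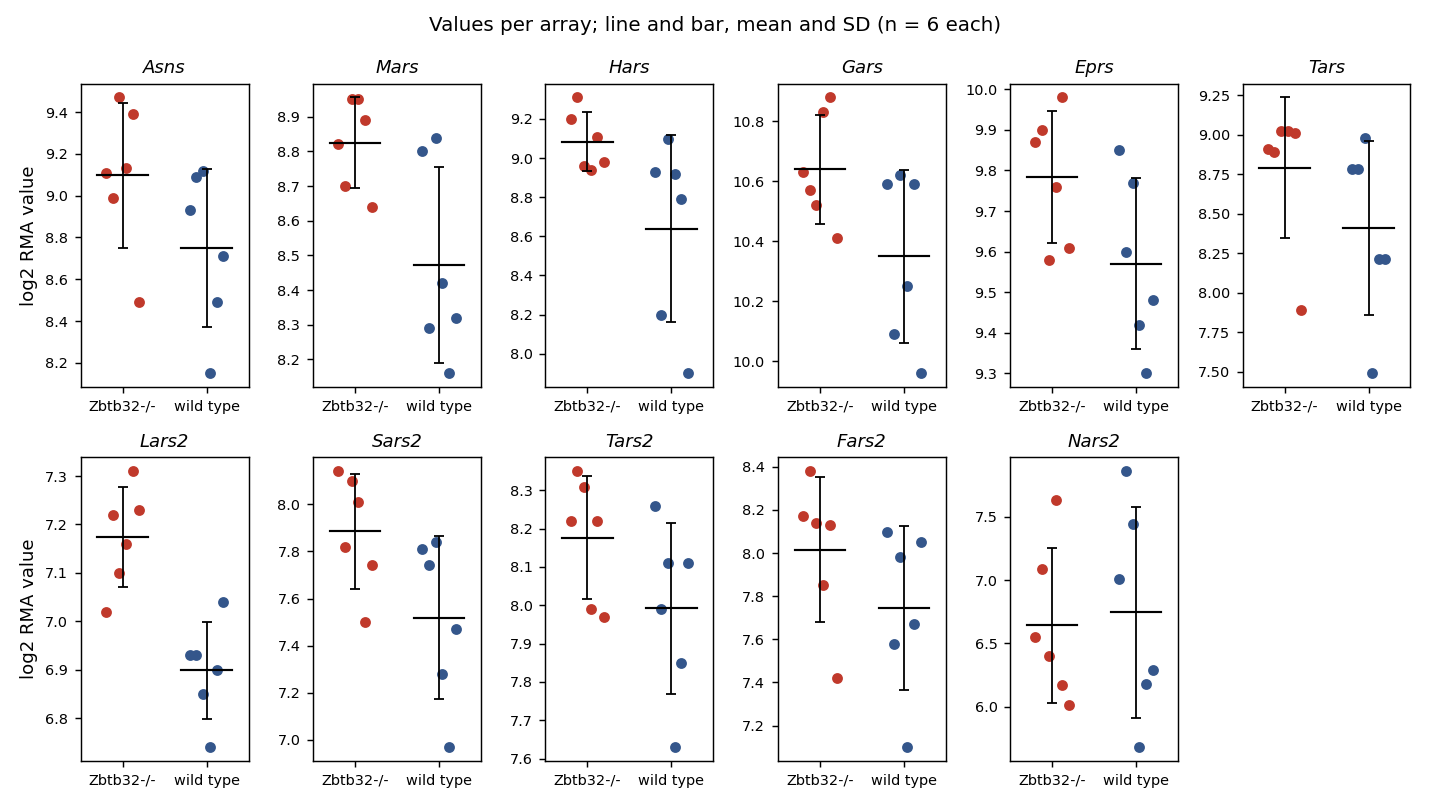
Log2 RMA values (y axis, a separate scale per gene that does not start at 0) of the 11 genes described in detail, 1 point per array, with Zbtb32-/- left of wild type; the horizontal line is the mean and the bar the SD, n = 6 each. The groups overlap in every panel, and the low Zbtb32-/- point at 7.89 in Tars is replicate 6.

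The mitochondrial synthetases were less uniform, with 10 of 16 positive differences and a median of 0.06. Genes above the 50th percentile of level also had a median of 0.06, with 64.4% of them positive. Class I genes had 5 of 9 positive (median 0.01) and class II genes 5 of 7 (median 0.06). Omission of wild-type replicate 4 gave a median of 0.02, and omission of wild-type replicate 3 one of 0.13. Whether the cytosolic and mitochondrial lists differ from each other was not tested.

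Lars2, the mitochondrial leucyl enzyme, had 7.02, 7.19 and 7.31 in Zbtb32-/- cells and 6.74, 6.91 and 7.04 in wild-type cells. The groups overlapped by 1 array on each side, and all 6 Zbtb32-/- arrays exceeded the wild-type mean. The difference was 0.28 (1.21-fold, SE 0.09, 95% interval 0.08 to 0.47), with the smallest unadjusted p of the 35 genes (0.00812) and an adjusted p of 0.933 in limma.

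Sars2, the mitochondrial seryl enzyme, had 7.50, 7.92 and 8.14 in Zbtb32-/- cells and 6.97, 7.60 and 7.84 in wild-type cells. Of the wild-type arrays, 3 lay below every Zbtb32-/- array and the others within the Zbtb32-/- range. The difference was 0.37 (1.29-fold, SE 0.17, unadjusted p 0.0481, adjusted p 0.933 in limma).

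Fars2, the single-chain phenylalanyl enzyme of mitochondria, had 7.42, 8.13 and 8.38 in Zbtb32-/- cells and 7.10, 7.82 and 8.10 in wild-type cells, a difference of 0.27 (SE 0.20). Tars2, the threonyl one, had 7.97, 8.22 and 8.35 in Zbtb32-/- cells and 7.63, 8.05 and 8.26 in wild-type cells, a difference of 0.19 (SE 0.13). The ranges of both genes overlapped widely, and without wild-type replicate 4 the differences were 0.14 for Fars2 and 0.11 for Tars2. Nars2, the asparaginyl enzyme, varied most in the list (SD 0.70 over 12 arrays), with 6.01, 6.48 and 7.63 in Zbtb32-/- cells and 5.68, 6.65 and 7.86 in wild-type cells. Its difference of -0.10 (95% interval -0.89 to 0.68) had no stable sign, being -0.76 in replicates 1 to 3 and 0.55 in replicates 4 to 6.

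The remaining mitochondrial differences lay between -0.06 and 0.22. Those of Yars2 (tyrosyl, 0.22), Cars2 (cysteinyl, 0.21) and Iars2 (isoleucyl, 0.13) were the higher ones. Aars2 (alanyl) and Hars2 (histidyl) were at 0.06, Mars2 (methionyl) at 0.01 and Ears2 (glutamyl, which also feeds the mitochondrial route to glutaminyl-tRNA) at -0.0023. Rars2 (arginyl, -0.02), Wars2 (tryptophanyl, -0.05), Pars2 (prolyl, -0.05) and Vars2 (valyl, -0.06) were slightly negative. Paired by amino acid, the cytosolic and mitochondrial enzymes did not show the same estimates. Hars was at 0.44 and Hars2 at 0.06, although the genes neighbour each other on chromosome 18. Mars was at 0.36 and Mars2 at 0.01, whereas Lars was near 0 and Lars2 at 0.28, and Sars was at 0.03 and Sars2 at 0.37. These contrasts within a pair were not tested.

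The estimates differed between replicates 1 to 3 and replicates 4 to 6. Whether the genotype difference depends on these sets was not tested. Over replicates 1 to 3 alone, 13 of 18 cytosolic genes were positive with a median of 0.08, and 8 of 16 mitochondrial genes with a median of 0.0016. Over replicates 4 to 6 alone, the counts were 16 of 18 with a median of 0.38 and 15 of 16 with a median of 0.19. Among all genes, 50.9% and 54.1% were positive in these 2 sets. Mars had a difference of 0.18 in replicates 1 to 3 and 0.53 in replicates 4 to 6, Tars 0.10 and 0.67, and Asns 0.14 and 0.55. Hars (0.41 and 0.47) and Lars2 (0.21 and 0.34) were closer between the sets. The labels name no batch, and the split into these sets was made with earlier results of these data known.

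Across the 12 arrays the synthetases spread more than most genes, with a median SD of 0.34 in both lists against 0.25 over all genes tested. The mean of the 18 cytosolic genes was 9.58, 9.66, 9.67, 9.60, 9.66 and 9.11 in Zbtb32-/- replicates 1 to 6, and 9.70, 9.29, 9.70, 9.10, 9.20 and 9.06 in wild-type replicates 1 to 6. Thus 5 Zbtb32-/- arrays were alike and replicate 6 was low, whereas wild-type replicates 1 and 3 matched the higher arrays and the other 4 were low. In Zbtb32-/- replicate 6, 17 of the 18 genes lay below their own mean over all arrays. In wild-type replicates 4, 5 and 6 the numbers were 17, 16 and 16, and in wild-type replicate 2 it was 13. No other array had more than 5 cytosolic genes below their mean. The mean of the 16 mitochondrial genes followed partly, with 7.37, 7.36, 7.44, 7.41, 7.21 and 7.08 in Zbtb32-/- replicates and 7.37, 7.37, 7.55, 6.86, 7.07 and 7.08 in wild-type replicates.

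**Figure D3:**
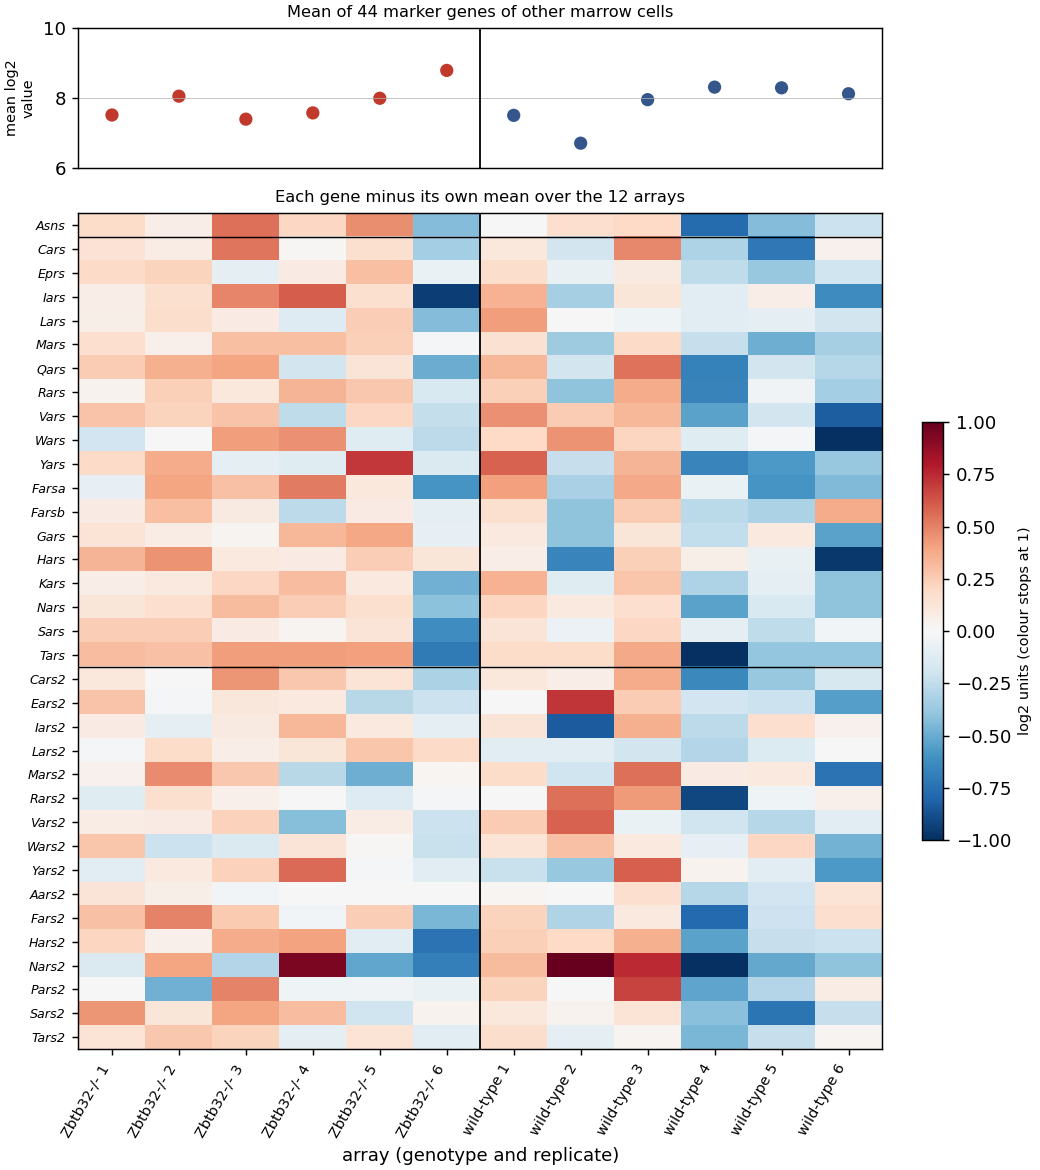
Upper panel: mean log2 RMA value of 44 marker genes of other marrow cells per array (y axis, not starting at 0), with Zbtb32-/- arrays left of wild-type arrays. Lower panel: each gene's log2 value minus its own mean over the 12 arrays (colour, log2 units), with Asns, cytosolic and mitochondrial genes from top to bottom. Zbtb32-/- replicate 6 (marker mean 8.79) and wild-type replicates 4, 5 and 6 (8.31, 8.29 and 8.12) have the highest marker means and mostly blue columns among the cytosolic genes. Wild-type replicate 2 has the lowest marker mean (6.70), with 13 of 18 cytosolic genes below their own mean.

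Averaged over all markers of other marrow cells, 4 of these low arrays (Zbtb32-/- replicate 6 and wild-type replicates 4, 5 and 6) were also the highest. Wild-type replicate 2, also low in cytosolic genes, instead had the lowest marker mean of the 12 arrays (6.70) and a plasma cell mean of 11.28. The mean over 44 neutrophil, monocyte and macrophage, erythroid, and T and NK cell genes was 8.79 in Zbtb32-/- replicate 6 and 8.31, 8.29 and 8.12 in wild-type replicates 4, 5 and 6. It was 7.39 to 8.05 in the other Zbtb32-/- arrays and 6.70 to 7.95 in the other wild-type arrays. By single list this order held for monocyte and macrophage genes, at 8.04 in Zbtb32-/- replicate 6 and 7.87, 8.60 and 7.60 in wild-type replicates 4, 5 and 6 against at most 7.29 elsewhere. It did not hold for erythroid genes, which were highest in wild-type replicate 3 (8.14) and Zbtb32-/- replicate 3 (7.75). Neutrophil genes were lower in wild-type replicate 6 (10.28) than in Zbtb32-/- replicates 5 (10.72) and 2 (10.55), and T and NK cell genes lower in wild-type replicate 5 (6.00) than in Zbtb32-/- replicate 4 (6.10). Averaged by list, neutrophil genes averaged 8.92 to 12.19 over the Zbtb32-/- arrays and 8.02 to 10.94 over the wild-type arrays. Monocyte and macrophage genes averaged 6.72 to 8.04 in Zbtb32-/- and 6.40 to 8.60 in wild-type arrays, erythroid genes 6.89 to 7.75 in Zbtb32-/- and 6.16 to 8.14 in wild-type arrays, and T and NK cell genes 5.76 to 6.24 in Zbtb32-/- and 5.72 to 6.94 in wild-type arrays. B cell genes, not among the 44, averaged 8.24 to 8.78 in Zbtb32-/- arrays, with 8.73 in replicate 6. They averaged 9.01, 9.21 and 9.11 in wild-type replicates 4, 5 and 6 and 7.93 to 8.90 in the other wild-type arrays. Positive differences were found for 13 of 14 neutrophil genes, 1 of 10 monocyte and macrophage genes and 9 of 9 erythroid genes. The numbers were 1 of 9 T and NK cell genes, 3 of 13 B cell genes and 11 of 14 plasma cell genes, and 0 passed the limma test. At an unadjusted p under 0.05 in limma there were 2 B cell genes, both lower in Zbtb32-/- cells, against 1.45% of all genes lower. Plasma cell genes averaged 10.75 in Zbtb32-/- replicate 6 against 11.10 to 11.36 in the other Zbtb32-/- arrays, and 10.62, 10.93 and 10.93 in wild-type replicates 4, 5 and 6 against 11.21 to 11.39 in the other wild-type arrays. In such sorted samples, fewer cells of a type and less RNA per cell cannot be told apart.

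With these 4 arrays left out, a choice made after seeing the data, 12 of 18 cytosolic genes had a positive difference with a median of 0.05, and 7 of 16 mitochondrial genes with a median of -0.05, while 46.4% of all genes were positive. Hars stayed at 0.36, Lars2 at 0.26 (unadjusted p 0.0459, limma), Gars at 0.25 and Fars2 at 0.25. Lower values were found for Mars (0.22), Asns (0.17), Tars (0.13), Sars2 (0.12, unadjusted p 0.486, limma), Tars2 (0.10) and Eprs (0.08), and Nars2 was at -0.67. The omission takes 3 arrays from wild type and 1 from Zbtb32-/-. With the marker mean kept as a covariate over all 12 arrays, the medians were 0.22 for cytosolic and 0.08 for mitochondrial genes, and 0 genes passed in either fit. The part of other cells in the genotype differences was not tested beyond these values.

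The slope of each gene on the marker mean was then fitted with genotype as a term. It was negative for 28 of 35 genes, where 60.9% of all genes had a negative slope, with a median of -0.25 log2 units per unit of marker mean for cytosolic genes, -0.23 for mitochondrial genes and -0.05 for all genes. By limma with Benjamini-Hochberg adjustment, 2 of the 35 passed, both mitochondrial: Hars2 (-0.54, SE 0.13, adjusted p 0.042) and Ears2 (-0.47, SE 0.12, adjusted p 0.046), against 1.41% of all genes (211). Hars2 had 6.25, 7.12 and 7.39 in Zbtb32-/- cells and 6.45, 6.98 and 7.34 in wild-type cells, with Zbtb32-/- replicate 6 and wild-type replicate 4 the lowest. Nars had a slope of -0.37 (adjusted p 0.0626), Tars of -0.63, Nars2 of -0.88 and Asns of -0.47, which missed the threshold. Iars2 (0.19), Hars (0.14) and Farsb (0.08) had the smallest p among positive slopes, and 0 of the 35 passed in that direction. The calls depended on single arrays: the number of the 35 that passed was 0 without any 1 of Zbtb32-/- replicates 1, 2, 3, 5 and 6 or wild-type replicates 1, 4 and 5, 1 without Zbtb32-/- replicate 4 or wild-type replicate 6, 3 when wild-type replicate 2 was omitted and 6 when wild-type replicate 3 was. The number over all genes moved as well, from 211 in the main fit to between 31 and 204 in the omissions that left 0 of the 35. Of the fits with 1 of the 35, that lacking Zbtb32-/- replicate 4 had 281 genes and the other 171. The fit with 3 of the 35 had 112 genes and the fit with 6 had 359. The slope of Hars2 was -0.81 to -0.40 and that of Ears2 -0.58 to -0.33 over these omissions. Within the 8 arrays that remained after leaving out the 4 with the highest marker means, 9 of 35 genes had a negative slope and 26 a positive one, and 0 passed in limma. At an unadjusted p under 0.05 there were 6 positive and 1 negative slopes among the 35, against 9.61% positive and 9.42% negative over all genes.

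Asns, the marker gene of the amino acid response in this list, was used in the same way to describe which synthetases moved with it from array to array. Its slope was positive for 33 of 34 synthetases, where 58.5% of all genes had a positive slope, and Hars was the exception at -0.08. The median slope was 0.54 for cytosolic genes, 0.46 for mitochondrial genes and 0.06 for all genes. Slopes that passed the adjusted threshold in limma numbered 5 of 34, against 2.90% of all genes (435 of 14992): Tars at 1.30 (SE 0.19, adjusted p 0.0137), Nars at 0.70 (SE 0.12, adjusted p 0.0227), Cars2 at 0.81 (SE 0.16, adjusted p 0.0232), Hars2 at 0.91 (SE 0.19, adjusted p 0.0272) and Qars at 0.84 (SE 0.22, adjusted p 0.0458). Tars, which holds the response motif near its start, had the steepest slope of the 34. Gars, which also holds it, had a slope of 0.19 (adjusted p 0.634). Nars2 had the next steepest slope after Tars, 1.24, which did not pass. Tars and Nars2 also had the largest SD over the 12 arrays in their lists, 0.52 and 0.70. Whether the motif bears on the slopes was not tested.

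**Figure D4:**
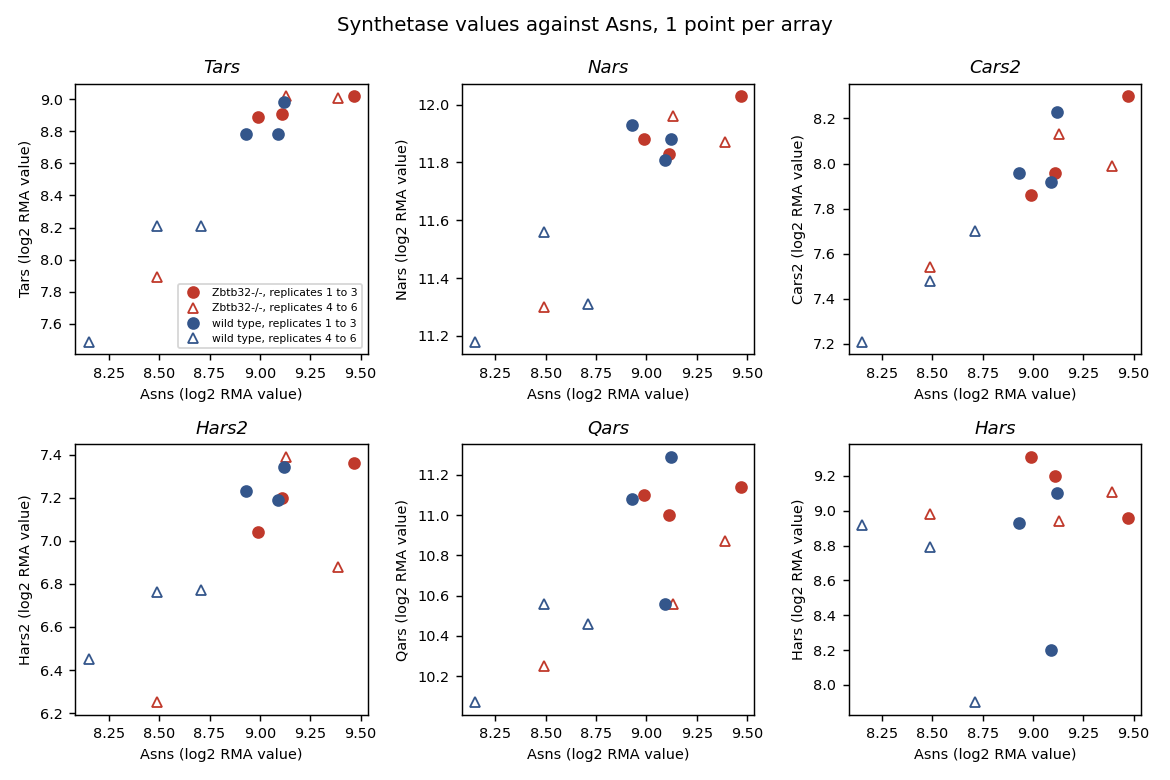
Log2 RMA value of the 5 synthetases whose slope on Asns passed the test, and of Hars, whose slope was -0.08 (y axes, not starting at 0), against the log2 RMA value of Asns (x axis), 1 point per array, by genotype (colour) and replicate set (filled circles for 1 to 3, open triangles for 4 to 6). The 4 arrays with the lowest Asns values, 8.15 to 8.71, are all from replicates 4 to 6 and hold the low values of Tars, Nars and Cars2, while the other 8 arrays lie between 8.93 and 9.47.

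The calls did not hold within the larger of 2 sets of arrays. Asns was 8.49 in Zbtb32-/- replicate 6 and 8.15, 8.49 and 8.71 in wild-type replicates 4, 5 and 6, the 4 arrays with the highest markers of other cells, and it was 8.93 or more in the other 8. Within those 8 arrays 16 of 34 synthetases had a positive slope, and 0 of them and 0 of all genes passed in limma; 1 was positive at an unadjusted p under 0.05, against 0.700% of all genes. The slopes were 0.30 for Tars, 0.15 for Nars, 0.63 for Cars2, 0.07 for Hars2 and 0.12 for Qars. The number that passed was also 0 when Zbtb32-/- replicate 6 or wild-type replicate 4 was omitted and with the 2 replicate sets as a block. It was 2 without Zbtb32-/- replicate 3 and 4 to 6 in each other single omission. Over all genes, 435 in the main fit, 0 passed without Zbtb32-/- replicate 6 and 1 without wild-type replicate 4. With the block 1 gene passed, without Zbtb32-/- replicate 3 there were 78, and the other single omissions gave 183 to 584. The slopes of Tars, Nars, Cars2, Hars2 and Qars changed less under these omissions and the block than within the 8 arrays. With the block they were 1.19 for Tars, 0.75 for Cars2, 0.75 for Hars2, 0.57 for Nars and 0.52 for Qars, and 32 of 34 were positive, 6 of them at an unadjusted p under 0.05 in limma against 5.10% of all genes. Without wild-type replicate 4 also 32 were positive, 11 of them at an unadjusted p under 0.05 against 10.4% of all genes. The slope of Tars was 1.19 to 1.40 over omissions of single arrays.

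The other genes of tRNA charging and its surroundings were described from lists, and 0 genes of any list passed the genotype test in either direction (smallest adjusted p 0.933, limma). For the counts below, 52.9% of all genes tested had a positive difference, and 64.4% of those above the 50th percentile of level. Of the scaffold proteins of the multi-synthetase complex, 2 of 3 had a positive difference, with Aimp2 at 0.24 (SE 0.18) and Aimp1 at 0.11 (SE 0.13). Among ATF4 targets other than synthetases 26 of 32 were positive with a median of 0.09. The 6 negative ones were Gpt2 (-0.17), Nupr1 (-0.13), Stc2 (-0.10), Chac1 (-0.08), Ddit4 (-0.08) and Atf5 (-0.05). Nearest to 0 among the positive ones were Sesn2, Vldlr, Slc3a2 and Slc1a5 (0.01 each) and Psat1 (0.0016). Phgdh, the first enzyme of serine synthesis, had 10.15, 10.43 and 10.50 in Zbtb32-/- cells and 9.66, 10.09 and 10.52 in wild-type cells, a difference of 0.30 (SE 0.15). Shmt2, the mitochondrial serine hydroxymethyltransferase, had a difference of 0.26 (SE 0.12).

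Of the eIF2 kinases, their partners and Atf4, 4 of 6 were positive with a median of 0.13. Eif2ak4, which encodes GCN2, was at 0.23 (SE 0.13) and Eif2ak1, the heme-regulated kinase, at 0.21 (SE 0.13). Atf4 itself, named here for its role and with its value seen, had 10.65, 11.02 and 11.17 in Zbtb32-/- cells and 10.48, 10.84 and 11.12 in wild-type cells, a difference of 0.20 (SE 0.13).

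Of the cytosolic elongation factors and their regulators, 5 of 6 were positive with a median of 0.05. Eef1a1, which carries charged tRNA to the ribosome, was at 0.08 (SE 0.06), and Eef1d, a subunit of its exchange factor, at 0.15 (SE 0.12). In mitochondria 7 of 8 elongation and amidotransferase genes were positive with a median of 0.15. Tufm, the mitochondrial elongation factor Tu, had 9.31, 9.60 and 9.78 in Zbtb32-/- cells and 8.83, 9.11 and 9.75 in wild-type cells, a difference of 0.41 (SE 0.16, unadjusted p 0.0262, adjusted p 0.933 in limma). Tsfm, its exchange factor, was at 0.32 (SE 0.17).

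Of the editing, selenocysteine and peptidyl-tRNA factors 4 of 7 were positive with a median of 0.15. Secisbp2, which binds the selenocysteine insertion element, had a difference of 0.38 (SE 0.15, unadjusted p 0.0238, adjusted p 0.933 in limma), and Pstk, the kinase that acts on seryl-tRNA for selenocysteine, of 0.28 (SE 0.13). Of the tRNA export and maturation genes 8 of 10 were positive with a median of 0.09. Xpot, the nuclear exporter of tRNA, had the largest negative difference of these lists at -0.51 (SE 0.29), with 6.41, 6.74 and 7.13 in Zbtb32-/- cells and 6.35, 7.28 and 8.59 in wild-type cells. The wild-type arrays spread over more than the whole Zbtb32-/- range. Tsen54, a subunit of the tRNA splicing endonuclease, was at 0.21 (SE 0.18).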

How the data were processed

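Affymetrix mouse gene arrays were hybridised with RNA of sorted bone marrow plasma cells, 6 Zbtb32-/- and 6 wild-type samples, grouped by the genotype in the labels. The authors deposited 1 log2 expression value per probe set and array. The submitters' processing notes name Affymetrix Expression Console and RMA, without versions. RMA compresses low values and hides differences in total RNA, and joint normalization of all 12 arrays is not recorded in the labels. RNA was amplified with a pico kit per the labels' protocols, which can widen the spread between arrays. Of 35556 probe sets 21789 name 1 gene, 1621 name several and were not tested; values ran from 2.33 to 14.33 with 0 identical columns.

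Each gene was read from the probe set that names it alone and has the highest mean. Genes with a mean above the 25th percentile (5.49) were tested, which left 14993, with limma 3.58.1 in R 4.3.3 (lmFit, eBayes with a trend), genotype as the term and Benjamini-Hochberg adjustment over all genes at 0.05; intervals are 95%. Slopes on the mean of 44 other-cell markers and on Asns were fitted likewise with genotype as a term. The steps were tested on simulated data. Sequences came from RefSeq tables of GRCm38.p6. Python 3.11.15, pandas 2.3.3 and matplotlib 3.10.9 joined tables and drew plots.

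Values per array were given for Asns, the 4 cytosolic and 4 mitochondrial genes with the smallest unadjusted p and the gene with the largest SD in each list. For slopes, the 3 genes with the smallest p in each direction were named, for other lists the 2 genes with the smallest p, and for markers the highest of each list. The genes, lists and rules were chosen with earlier results of these data known.

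The labels number the replicates 1 to 6 in both genotypes without saying that a number is shared. Deviations from the group means correlated at 0.468, 0.019, 0.22, 0.034, 0.135 and 0.156 between samples of the same number. Samples of different numbers were not compared in this way, and the numbers were not treated as pairs in the main fit. The alternatives tried were median centring, renewed quantile normalization, no filter, a filter at the 50th percentile (6.53), averaging the probe sets of a gene, eBayes without a trend or robust, array weights, the replicate number and the replicate sets as blocks, each set alone, the marker mean as a covariate, omission of each array, of wild-type replicates 2 and 6, and, for slopes, of the 2 arrays farthest from the covariate's median. Omission of the 4 arrays with the highest other-cell markers was added after seeing the data.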

Additional observations from a re-analysis of the deposited data

Results flagged for a closer look

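Within genotypes, 6 of 70 groups of 6 arrays held 1 array far from the others by Dixon's test at its 95% critical value, where chance gives about 1 in 20 groups. Zbtb32-/- replicate 6 was the lowest array in 5 of them, and the genes of 1 array are not independent. Tars was 7.89 there against 8.89 for the next array (gap over range 0.882), Sars 8.87 against 9.52 (0.748), Nars 11.30 against 11.83 (0.721), Kars 10.39 against 10.94 (0.698) and Iars 8.92 against 9.93 (0.654). Lars was the sixth, with 8.69 in wild-type replicate 1 against 8.27 in the next wild-type array (0.699). Zbtb32-/- replicate 6 also had the highest mean of other-cell markers, 8.79, and the part of that in these values was not tested.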

How the results depend on the processing

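In the genotype comparison 0 of the 35 genes passed under any of the 27 alternatives run, and the count over all genes was 0 except for 1 gene in replicates 4 to 6 alone. For the 11 genes described in detail, the estimate cannot change with the filters, the eBayes variants, the blocks or the averaging of probe sets. The groups are balanced and each of these genes has 1 single-gene probe set, so those settings hold the direction fixed. Of 297 values of these 11 genes, fixed ones included, 292 kept their direction without a call. The 5 that turned were all of Nars2: 0.55 in replicates 4 to 6 alone, 0.06 without wild-type replicates 2 and 6, 0.02 without Zbtb32-/- replicate 6, 0.12 when wild-type replicate 2 was omitted and 0.04 when wild-type replicate 3 was, in a range of -0.32 to 0.12 over single omissions. The cytosolic median ran from 0.14 to 0.29 and the mitochondrial median from 0.02 to 0.13 over single omissions; renewed quantile normalization gave 0.14 and 0.07. Omission of wild-type replicates 2 and 6 gave a cytosolic median of 0.10 with 14 of 18 positive. Median centring raised the share of positive differences over all genes to 59.8%, from 52.9% as deposited, and moved the median of all genes to 0.04. The slope calls depended on the processing, and the cause was not tested. For negative slopes on other-cell markers the count over all genes, 211, was 436 after renewed quantile normalization (5 of the 35), 112 after median centring, 126 without the filter, 7 with the replicate sets as a block, 2 without the 4 arrays highest in those markers and 0 without the 2 farthest arrays, each of these last 5 with 0 of the 35. Single omissions gave 31 to 359 genes and 0 to 6 of the 35. For positive slopes on Asns, 435 genes and 5 of the 34 passed in the main fit. Renewed quantile normalization gave 110 genes and 4 of the 34, and median centring 739 genes and 5 of the 34. Dropping the filter gave 299 genes and 4 of the 34. Blocking on the replicate sets left 1 gene, and leaving out the 4 arrays or the 2 farthest arrays left 0. In these last 3 fits 0 of the 34 passed. Single omissions gave 0 to 584 genes and 0 to 6 of the 34. The replicate number as a block gave 0 calls between genotypes, 1 gene and 0 of the 35 on other-cell markers, and 8 genes and 0 of the 34 on Asns. Samples of the same number correlated at 0.019 to 0.468 between genotypes, without samples of different numbers as a reference. These values therefore do not settle whether the number is a real block. Between genotypes, genes at an unadjusted p under 0.05 in limma numbered 642 without a block. They numbered 914 with the replicate number and 959 with the replicate sets as a block. With 6 arrays each, the 95% interval extended by a median of 0.31 log2 units to either side.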
